A study of Mus musculus with 12 samples.

Results

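Late high alcohol drinkers were set against early high alcohol drinkers with 3 pools of each, which made up 6 of the 12 hypothalamic arrays of the series. The arrays were taken by their titles, which name late and early alcohol drinkers with the numbers 1 to 3. All were male ICR mice, an outbred strain, and neither group carried a transgene or received a drug. From 3 weeks of age, after a few days with water in both drinking tubes, the mice of both groups could choose between water and a tube of 5% or 10% alcohol until they were killed as adults. The labels do not say over which days the drinking was high. The study lists the mice and alcohol concentration behind each alcohol pool, but under pool names that the labels do not carry, so the concentrations were not assigned to arrays here. Early and late are therefore used here only as names of the groups. Alcohol arrays held RNA of 1 to 3 mice, and by that list high drinker pools were the smaller ones, some of a lone mouse. All arrays are called pools below, and the spread between arrays is a spread between such samples. The other 6 arrays, 3 of water-only mice and 3 of low drinkers, entered the tests through the estimate of the spread alone.

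The hypothalamus holds small groups of neurons that release peptides controlling appetite, thirst, body temperature, stress hormones, growth and reproduction. Many of these peptides also act in the choice to drink alcohol, and alcohol itself acts on receptors for GABA and glutamate, on potassium channels and on glycine receptors. A pool of whole hypothalami mixes all these neurons with glia, vessels and blood, so fewer cells of a type and less RNA per cell cannot be told apart.

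Late pools 1, 2 and 3 lay on the same slide as early pool 3, whereas early pools 1 and 2 lay on another slide with 2 low drinker pools. Each spot's fluorescence was expressed as log2 intensity relative to the 75th percentile of its array. That percentile was between 1512 and 1834 intensity units on the early arrays and between 1828 and 1853 on the late arrays. Between 67.0% and 79.3% of the spots were well above background on the early arrays, and between 71.2% and 76.5% on the late arrays. Of 41174 probes, 33141 had a value on enough arrays to be tested. Of 37 hypothalamic neuropeptides with a probe, 36 were tested, and 2 of those were not well above background on every early and late array. All 16 thalamic and 15 striatal markers with a probe were tested too, so passing the filter does not tell hypothalamus from other brain tissue. Hcrt and Pmch, peptides of lateral hypothalamic neurons, were bright, with means of 5.81 and 5.44 in early pools and 5.86 and 5.53 in late pools.

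Over the 30554 probes with a value on all 6 arrays, the first principal component held 36.7% of the variance. Early pools 1 and 2 were both at -32.9 on it, early pool 3 at 0.7, and the late pools at 28.2, 20.8 and 16.1. The groups did not overlap along this axis, and early pool 3 was the early array nearest the late pools with which it shared a slide. On the second component, which held 20.9%, late pools 1 and 2 were at 8.2 and 27.7 while late pool 3 was at -27.2, close to early pool 3 at -19.6. The correlation of early pool 3 with late pool 3 over probes was 0.9948, the highest of the 15 pairs of arrays, and other pairs were between 0.9903 and 0.9943. The share of variance between late and early arrays was 31.5%, the largest of the 10 ways to part 6 arrays into 3 and 3 (exact permutation test, 1-sided p = 0.1, the smallest p that this design can give). Because early pools 1 and 2 alone lay on the other slide, the contrast between the groups is also in part one between slides. The size of that part was not measured.

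**Figure D1:**
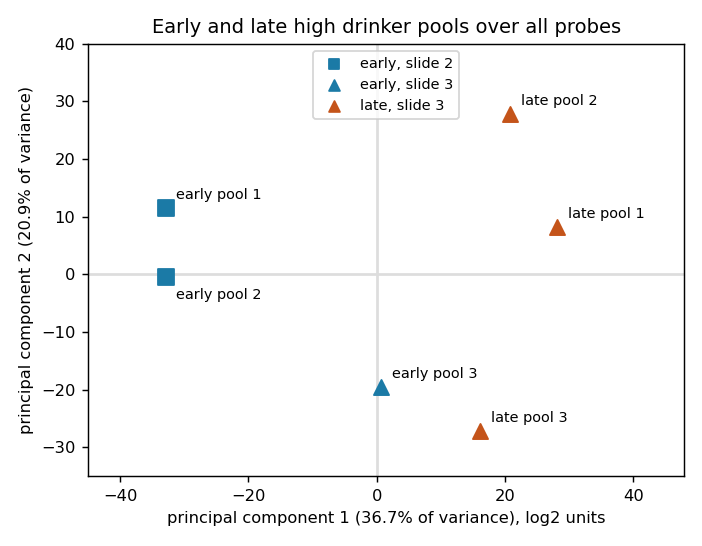
Position of each early (blue) and late (orange) pool on the first 2 principal components of 30554 probes, in log2 units, with squares for slide 2 and triangles for slide 3. Late pools lie between 16.1 and 28.2 on the first component, early pool 3 at 0.7 and early pools 1 and 2 at -32.9.

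No probe passed an adjusted p of 0.05 between late and early drinkers (0 of 33141, or 0.00%), and the smallest adjusted p was 0.0764 (limma, Benjamini-Hochberg adjustment). At an unadjusted p under 0.05 there were 4025 probes, against 1657 that would pass if no probe differed. Of them, 1373 were higher in late drinkers (4.14% of probes tested) and 2652 were lower (8.00%). This split depended on the scaling, with 1725 higher and 1999 lower under quantile normalization and 4334 higher and 914 lower without scaling. All 3 late pools were above all 3 early pools at 2519 of the 30554 probes with 6 values (8.24%), and below them at 4049 (13.3%). This direction turned with the processing, with 3244 above and 2744 below under quantile normalization, 5937 and 1225 without scaling, and 3780 and 2620 after a correction for GC content. The median difference over all probes was -0.03 on the log2 scale, and the median standard error of a difference was 0.12. With slide as a block, which leaves the 3 late pools against early pool 3, 18 probes passed an adjusted p of 0.05, 15 of them lower in late drinkers, and 1808 passed unadjusted. Leaving out early pool 3 gave 194 probes past an adjusted p of 0.05, 189 of them lower, and leaving out late pool 3 gave 103, of which 96 were lower. These calls were of different probes: 6 probes were shared by the last pair of settings and 0 by either of them and the slide block. Over all probes tested, no gene named below therefore has an adjusted p under 0.05 with all pools, and genes are described by their values, with the unadjusted p of limma for orientation.

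Among annotated probes well above background on all 6 arrays whose groups did not overlap, the largest differences upward were in genes of pituitary hormones. Cga encodes the alpha subunit shared by thyrotropin and the gonadotropins. Its log2 intensity was 1.14, -1.41 and 1.53 in early pools 1 to 3, and 2.52, 2.22 and 1.79 in late pools 1 to 3. The late pools were close together, and early pool 2 was far below every other pool. The difference was 1.76 ± 0.73 (SE, unadjusted p = 0.0386), or 3.38-fold, 0.84 without early pool 2 and 0.65 against early pool 3. Tshb, the beta subunit of thyrotropin, was at -3.45, -5.30 and -3.69 in the early pools and at -2.34, -2.73 and -3.21 in the late pools. Early pool 2 was again the lowest, and the difference was 1.39 ± 0.43 (unadjusted p = 0.00902), and 0.81 without early pool 2, while the other probe of Tshb differed by 0.01. Pitx1, a transcription factor of the anterior pituitary, followed the same order with overlapping groups, at -2.42, -4.52 and -2.44 in early pools and -0.88, -1.69 and -2.75 in late pools, and its difference of 1.35 was 0.65 without early pool 2.

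Further genes were higher in late drinkers with a smaller spread. Axin2, a negative regulator and a target of Wnt signalling, was at -3.53, -3.29 and -3.53 in early pools and at -2.59, -2.76 and -2.82 in late pools, a difference of 0.72 ± 0.19. Crebzf, a bZIP transcription factor, was at 0.85, 1.28 and 0.79 against 1.96, 1.63 and 1.98, a difference of 0.89 ± 0.19. Both differences were as large against early pool 3 alone, at 0.80 for Axin2 and 1.07 for Crebzf. Car8, a carbonic anhydrase-related protein that binds the IP3 receptor, was 2.15-fold higher, and by 0.42 on the log2 scale at its other probe, while Pgam2, the muscle form of phosphoglycerate mutase, differed by 0.70. The other genes in the upper 10 by size were Wfdc2 at 0.91 (0.56 without early pool 2), Mycbp at 0.81 (0.47 without early pool 3), Trub1 at 0.73 and Uncx at 0.70, and the other probes of Mycbp, Trub1 and Uncx differed by -0.49 to 0.31.

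By p, the leading gene upward was Arrdc4, an arrestin-domain gene that responds to glucose. Its probe nearest the 3′ end stood at -2.05, -2.05 and -2.07 in early pools and at -1.58, -1.72 and -1.54 in late pools. The early pools were almost equal and every late pool was higher, by 0.44 ± 0.06 on average (unadjusted p = 4.18e-05), or 1.36-fold. The second probe of Arrdc4, across an exon junction upstream, differed by 0.08 ± 0.14, so the difference was seen at 1 of 2 probes. Trim56, a ubiquitin ligase of antiviral signalling, was at -1.67, -1.42 and -1.59 against -1.03, -0.91 and -1.12, a difference of 0.54 ± 0.09. Agap1, Pla1a and Map7 completed the leading genes by p, with differences of 0.42, 0.36 and 0.40, and those of Trim56 and Map7 were 0.57 and 0.42 against early pool 3 alone. The other probes of Map7 were also higher, by 0.29 and 0.40, while that of Agap1 differed by 0.10.

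Of 26856 probes well above background on the early and late arrays, all late pools lay over 0.2 above the other 9 arrays at 14, and over 0.2 below them at 95. These counts were made under the main scaling alone, and no other sets of arrays were compared. They are a description without a test, and the balance of probes above and below turned with the processing, as given above.

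**Figure D2:**
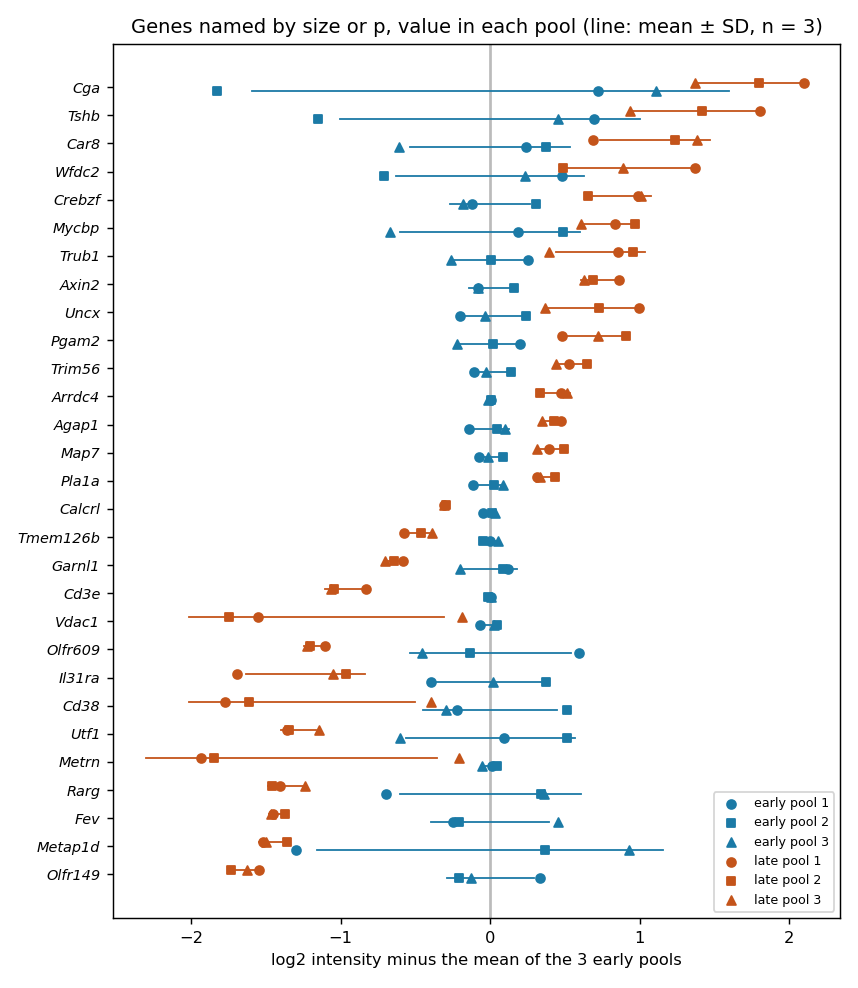
Log2 intensity of each pool minus the mean of the 3 early pools for the 29 genes with the largest differences or the smallest p in each direction, with early pools in blue, late pools in orange, a shape for each pool number and lines for the mean ± SD of 3 pools. Genes such as Arrdc4 and Cd3e have early pools that nearly coincide, whereas Metrn, Vdac1 and Cd38 have late pool 3 near the early pools.

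Downward, the smallest p belonged to Olfr149, an olfactory receptor gene, and to Cd3e, a chain of the T cell receptor complex. Olfr149 was at -2.42, -2.96 and -2.88 in early pools and at -4.30, -4.49 and -4.38 in late pools. Cd3e was at -3.34, -3.36 and -3.34 in early pools and at -4.18, -4.39 and -4.41 in late pools. The groups were clearly apart at both genes, by -1.64 ± 0.17 for Olfr149 and -0.98 ± 0.11 for Cd3e, each with an adjusted p of 0.0764 (limma). Both are probes of low intensity, and over the 26949 probes well above background on all 6 arrays both had an adjusted p of 0.0318 (limma). The difference of Cd3e was also -0.98 against early pool 3 alone, and that of Olfr149 was -1.51.

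Fev, the transcription factor that specifies serotonin neurons, was at -3.49, -3.45 and -2.79 in early pools and at -4.70, -4.62 and -4.71 in late pools. The difference was -1.43 ± 0.25, and it was -1.89 against early pool 3, the highest of the early pools. Calcrl, the receptor for CGRP and adrenomedullin, was lower by a small amount with little spread, at -0.88, -0.82 and -0.80 against -1.14, -1.13 and -1.14. Tmem126b, a mitochondrial complex I assembly factor, was at 0.29, 0.24 and 0.34 against -0.29, -0.17 and -0.10, a difference of -0.48 ± 0.08. In all 3 genes every late pool was below every early pool, and the differences held against early pool 3 alone, at -0.33 for Calcrl and -0.52 for Tmem126b. Garnl1, a RalGAP subunit, differed by -0.64 at this probe and by 0.08 at its other probe.

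The other genes of low intensity with large differences were Rarg, a retinoic acid receptor, at -1.37 (-0.53 to -0.35 at its other probes), Utf1 at -1.28, Il31ra at -1.23 and Olfr609 at -1.18. Against early pool 3, Utf1 was at -0.67 and Olfr609 at -0.72. Metap1d, a mitochondrial methionine aminopeptidase, differed by -1.46 and at its other probe by -1.28, but early pool 1 at -3.53 lay near the late pools at -3.75, -3.59 and -3.73, while early pools 2 and 3 were at -1.86 and -1.30. Metrn, Vdac1 and Cd38, also among the lower 10, had late pool 3 near the early pools and late pools 1 and 2 far below. At Cd38, water pool 1 at -4.34 was as low as late pools 1 and 2 at -4.25 and -4.09, and the other probe differed by 0.05.

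At a set of probes, late pools 1 and 2 stood apart from every other array, late pool 3 included. Metrn, a secreted factor for glia and neurites, was at 2.14, 2.17 and 2.07 in early pools, at 0.19 and 0.28 in late pools 1 and 2, and at 1.92 in late pool 3. Vdac1, the main channel of the outer mitochondrial membrane, was at 2.58, 2.69 and 2.67 in early pools, at 1.09 and 0.90 in late pools 1 and 2, and at 2.46 in late pool 3. Late pool 3 was thus slightly below the early pools at both genes, and late pools 1 and 2 were far below. Without late pools 1 and 2 the differences of -1.33 and -1.17 became -0.21 and -0.19. In all, 85 of 26856 probes well above background had both pools more than 0.5 below the other 10 arrays, and 4 had both above. The other 14 pairs among the 6 arrays gave between 0 and 6 probes below and between 0 and 2 above. These probes were picked by their values, so their counts are a description without a test. The pools differed from the other arrays by -2.73 to -0.68 at the 85 probes, with a median of -1.12, while the median of late pool 3 against the 9 arrays of the other groups was -0.15.

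The 85 probes carried 74 different symbols, and genes of many kinds were among them, such as U2af1 (a splicing factor), Kcnj4 (a potassium channel), Mapk8ip1 (a kinase scaffold), Matn4 (a matrix protein) and Eef2 (an elongation factor). Npas4, an activity-regulated transcription factor, was at -2.07, -1.58 and -1.75 in early pools, -3.38 and -3.29 in late pools 1 and 2, and -2.04 in late pool 3. Npas4 therefore differed between groups mainly through these pools, with a difference of -0.24 without them. Of the 103 probes past an adjusted p of 0.05 without late pool 3, 61 were of this set, and 0 of the set had an unadjusted p under 0.05 without late pools 1 and 2.

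The difference usually did not extend along the gene. Among 43 of these genes with another probe measured, 3 (Metrn, Vdac1 and U2af1) had every probe in the set, and the 66 probes outside it had a median difference of -0.08, with 8 lower by over 0.5. In 30 of 39 genes with probes both in and outside the set, the probe nearest the 3′ end was outside it, and in 9 it was in the set. No count expected from the number of probes per gene was worked out, so these counts alone show no pattern along the gene. The first 30 of the 60 bases of each probe are shown for genes where all, some or none of the probes followed the pattern, as in the array files, 5′ to 3′, with positions in mm9 and no part in capitals.
Metrn, chr17:25931917-25931976, minus strand, lower by 1.97: gtctattcagctgctctcacgacccatctc
Metrn, chr17:25931756-25931815, minus strand, lower by 1.33: tacccacagtgagctggtagaatactaagt
Vdac1, chr11:52202560-52202619, plus strand, lower by 1.96: gcgtgatggagccagtcattcaggaattaa
Vdac1, chr11:52202733-52202792, plus strand, lower by 1.02: aacactagggatttcaactgattcctcttg
Cx3cl1, chr8:97296742-97296801, plus strand, lower by 1.52: gtagacattcctagggacataggaaagatg
Cx3cl1, chr8:97306185-97306244, plus strand, higher by 0.11: tcccagagcagaatgtgggccgtaacaatc
Arrdc4, chr7:75881905-75881964, minus strand, not in the set: ccaaggggaaaataaagattgtattttgta
Arrdc4, chr7:75889774-75890048, minus strand, not in the set: ctttcagcttcggtctgaacctttggcaac
The values beside Metrn, Vdac1 and Cx3cl1 are the mean of late pools 1 and 2 minus the mean of the other 10 arrays on the log2 scale. For Cx3cl1, the chemokine fractalkine, the upstream probe was lower and the probe nearer the 3′ end was not.

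**Figure D3:**
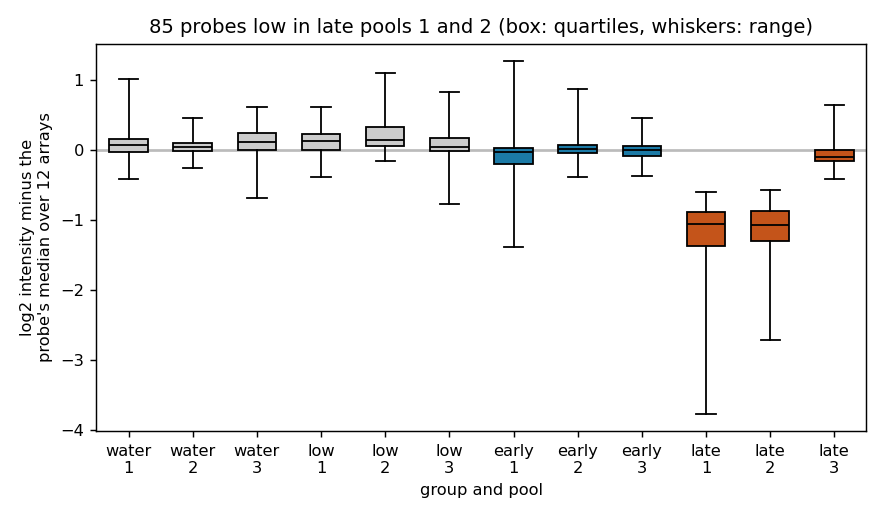
Log2 intensity minus the probe's median over the 12 arrays for the 85 probes low in late pools 1 and 2, with a box for the quartiles and whiskers for the range on each array. By the choice of probes, late pools 1 and 2 lie below the other 10 arrays, and late pool 3 lies near 0 with the arrays of the other groups.

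The difference between late and early arrays moved with the base composition of the probes. Among probes well above background, those with at most 30% G or C were higher in late drinkers by a median of 0.16 over 550 probes, and those above 60% were lower by a median of 0.21 (difference -0.21, 155 probes). Between these ends the median went down with each class. The gap between the lowest and the highest GC class was 0.28, 0.32 and 0.32 on late arrays and -0.24, -0.06 and 0.05 on early arrays, so the groups did not overlap in it. Against early pool 3 alone the medians were 0.17 and -0.06 in these classes. Probes at or below 30% had 25.6% higher and 1.09% lower at an unadjusted p under 0.05, and those between 55% and 60% had 1.24% higher and 26.6% lower. When each array was corrected for GC content, a step added after the trend was seen, 2013 probes were higher and 1868 lower at an unadjusted p under 0.05, and 0 passed an adjusted p of 0.05. After this step the difference was 0.41 for Arrdc4, 0.55 for Axin2, -0.85 for Cd3e, -1.31 for Fev and -0.33 for Calcrl.

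The direction of dim probes also turned on the scaling. Among the 6629 dimmest of the probes tested the median difference was -0.25, and under quantile normalization it was 0.01. Among the 6628 brightest it was 0.02 and 0.01. Statements on genes of low intensity are therefore relative to the 75th percentile, and for Olfr149, Fev and Cd3e the differences under quantile normalization were -1.48, -1.25 and -0.83.

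**Figure D4:**
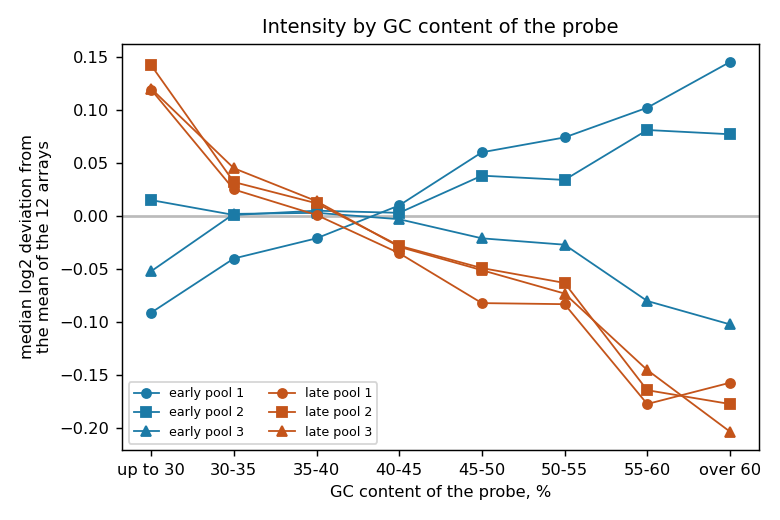
Median log2 deviation of each early (blue) and late (orange) array from the mean of the 12 arrays, by the GC content of the probe in percent. The late arrays go from between 0.12 and 0.14 at 30% or less to between -0.20 and -0.16 above 60%, whereas early pools 1 and 2 end above 0.

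Hypothalamic peptides differed little between late and early drinkers. Of 36 genes tested, 1 was higher and 1 lower at an unadjusted p under 0.05, when 4.86% of all 18390 genes (1 probe each) were higher and 7.61% lower, and the median difference was 0.00 against -0.02 over all genes. The gene that was higher was Npb, the ligand neuropeptide B, which acts on feeding and arousal. It was at -1.14, -0.94 and -0.95 in early pools and at -0.22, -0.54 and -0.60 in late pools. Every late pool was above every early pool, by 0.56 ± 0.11 on average (unadjusted p = 0.000699), or 1.47-fold, and by 0.50 against early pool 3. The gene that was lower was Nxph4, a neurexophilin, at -0.52, -0.67 and -1.05 in early pools and at -1.33, -1.37 and -1.13 in late pools, a difference of -0.53 ± 0.13, and of -0.23 against early pool 3.

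The feeding peptides of the arcuate nucleus overlapped between the groups. Agrp, which drives feeding, was at -1.04, -0.82 and -0.74 in early pools and at -0.88, -1.29 and -1.06 in late pools. Npy, released by the same neurons, differed by -0.03 ± 0.13, and Pomc and Cartpt, which restrain feeding, by -0.15 ± 0.34 and -0.14 ± 0.12. The lateral hypothalamic peptides were also close, with Hcrt (orexin) at 0.05 ± 0.15 and Pmch (melanin-concentrating hormone) at 0.09 ± 0.15. Both of these promote feeding, and in each the pools of the groups overlapped. Gal, a peptide that raises intake of fat and alcohol, was at 4.55, 4.67 and 4.42 in early pools and at 4.34, 4.65 and 4.52 in late pools.

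The neurosecretory hormones gave the same picture. Avp and Oxt, the hormones of the posterior pituitary, differed by 0.04 ± 0.11 and 0.10 ± 0.17. The releasing and inhibiting hormones Trh, Sst and Ghrh differed by 0.03 to 0.08. Gnrh1, which drives the gonadal axis, was at -1.47, -1.34 and -0.49 in early pools and at -1.17, -1.98 and -1.60 in late pools. Its difference of -0.48 ± 0.29 rested on early pool 3, whose value was the highest, and was -0.17 without it. Kiss1, upstream of Gnrh1 neurons, differed by -0.09 ± 0.16. Vip and Prok2, signals of the suprachiasmatic clock, differed by 0.18 ± 0.11 and 0.03 ± 0.13, and no probe for Crh was found under that symbol. The opioid precursors Penk and Pdyn differed by -0.08 ± 0.06 and -0.05 ± 0.07. Of 10 opioid genes, 0 had an unadjusted p under 0.05, when 4.86% of all genes were higher and 7.61% lower.

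Among 27 receptors of appetite signals, 0 were higher and 2 lower at an unadjusted p under 0.05, when 4.86% of all genes were higher and 7.61% lower. Mc3r, a receptor of melanocortins, was at -0.85, -0.69 and -0.96 in early pools and at -1.17, -1.16 and -1.07 in late pools, a difference of -0.30 ± 0.08. Its difference was -0.18 against early pool 3 and -0.17 after GC correction, and its other probe differed by 0.08. Galr3, a galanin receptor, was at -2.02 and -2.06 in early pools 1 and 2 but at -2.80 in early pool 3, near the late pools at -2.93, -2.82 and -3.03. The difference of -0.63 ± 0.19 was therefore -0.12 within the slide of the late pools.

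Of 33 dopamine, noradrenaline and serotonin genes, 1 was higher and 4 lower at an unadjusted p under 0.05 (4.86% and 7.61% over all genes), with a median difference of -0.18, which was -0.04 under quantile normalization and -0.05 against early pool 3. Drd2, the inhibitory dopamine receptor, was at -0.41, -0.26 and -0.44 in early pools and at -0.77, -0.60 and -0.64 in late pools. Every late pool was lower, by 0.30 on average (difference -0.30 ± 0.07, unadjusted p = 0.00158), and the second probe of Drd2 differed by -0.63. Drd5, an excitatory dopamine receptor, was at -2.79, -2.83 and -2.69 against -2.42, -2.28 and -2.54, a difference of 0.36 ± 0.13, while its second probe differed by -0.37. Th, the rate-limiting enzyme of catecholamine synthesis, differed by -0.40 ± 0.23, by -0.16 without late pool 1, by -0.23 without early pool 2 and by -0.62 without late pool 2. Slc6a3, the dopamine transporter, had the lowest difference of the list at -1.27 ± 0.84, through late pool 1 at -0.82, with all other early and late pools between 2.21 and 3.40. Htr5a and Htr2b, serotonin receptors, and Ddc, which makes dopamine and serotonin, were the other genes that were lower, and Htr2b was not well above background on any early or late array. Htr5a differed by -0.88 ± 0.29, and by -0.07 against early pool 3.

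Genes of the known targets of alcohol were counted at an unadjusted p under 0.05, at which 4.86% of all genes were higher and 7.61% lower. Of 21 genes of GABA-A receptors, GABA synthesis and transport, 1 was higher and 2 lower, and of 21 of ionotropic glutamate receptors and glutamate transport, 1 was higher and 0 lower. Gabrb2, a main GABA-A beta subunit, was at 4.51, 4.44 and 4.55 in early pools and at 4.62, 4.69 and 4.74 in late pools, a difference of 0.18 ± 0.07, but its other 3 probes differed by -0.55 to -0.07. Slc1a3, the glial glutamate transporter GLAST, differed by 0.18 ± 0.07 and its other probes by -0.13 and 0.03. In the 13 potassium and glycine channel genes sensitive to alcohol, 2 were higher and 1 lower, among them Kcnmb4 with a difference of 0.24 ± 0.06 and Glra2 with one of -0.28 ± 0.07. Kcnmb4 encodes the neuronal beta subunit of the BK channel, and was at 2.17, 2.22 and 2.34 in early pools against 2.45, 2.46 and 2.55 in late pools, with a difference of 0.14 against early pool 3. Glra2, a glycine receptor subunit, was at 0.26, 0.26 and 0.21 against -0.10, -0.11 and 0.10, with late pool 3 the nearest to the early pools.

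Of 9 endocannabinoid genes, 2 were higher and 2 lower at an unadjusted p under 0.05. Mgll, which breaks down 2-arachidonoylglycerol, was at 2.96, 2.92 and 3.08 in early pools and at 3.15, 3.26 and 3.30 in late pools, a difference of 0.25 ± 0.08. Dagla, which makes that lipid, was at 0.39, 0.36 and 0.58 against 0.64, 0.64 and 0.97, a difference of 0.30 ± 0.11, while its other probe differed by 0.07. The Dagla probe holds 23.3% G or C, and its difference was 0.13 after GC correction, 0.19 without late pool 3 and 0.16 against early pool 3, as was that of Mgll. Abhd12, another hydrolase, and Cnr1, the main cannabinoid receptor, were lower, with differences of -0.18 ± 0.06 and -0.25 ± 0.11. These 4 were the genes of the list at an unadjusted p under 0.05, out of 9 tested, when 4.86% of all genes were higher and 7.61% lower, and Cnr1 differed by -0.01 against early pool 3. Of 20 genes of alcohol metabolism and oxidative defence, Gclm, a subunit of the enzyme that makes glutathione, was higher by 0.42 ± 0.17, and Aldh1a1, an aldehyde dehydrogenase, was lower, with a difference of -0.53 ± 0.22. The pools of Aldh1a1 overlapped and its difference was -0.27 without late pool 1, and that of Gclm was 0.67 against early pool 3.

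Among 28 immediate early genes, which neurons switch on when they fire, 2 were higher and 3 lower at an unadjusted p under 0.05, when 4.86% of all genes were higher and 7.61% lower. Fosb was at -4.05, -4.11 and -4.76 in early pools and at -4.84, -5.73 and -5.14 in late pools, a difference of -0.93 ± 0.25, and of -0.48 against early pool 3. Jund was at 5.62, 5.58 and 5.59 against 5.19, 5.18 and 5.41, a difference of -0.34 ± 0.13. The third gene that was lower was Npas4, whose difference came from late pools 1 and 2, as given above. Junb and Dusp6 were higher with overlapping pools, and Dusp6 differed by 0.32 over all pools and by 0.01 against early pool 3. Fos itself differed by 0.45 ± 0.56, with early pools at -2.32, -1.85 and -0.66 and late pools at -0.38, -2.28 and -0.82. None of 23 circadian clock genes had an unadjusted p under 0.05, and their differences ran from -0.23 for Per3 to 0.34 for Rora. In the stress axis, with 18 genes tested, Tsc22d3, a target of glucocorticoids, was higher by 0.31 ± 0.12 with overlapping pools, by 0.17 without early pool 1 and by 0.06 against early pool 3, and Nr3c2, the mineralocorticoid receptor, was lower, with a difference of -0.32 ± 0.11. The other probe of Nr3c2 differed by 0.28, and the difference was -0.14 under quantile normalization.

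A list of 13 genes that the study chose on these samples, for the dilated cardiomyopathy pathway with Jup as an internal control, had 1 gene higher and 0 lower, when 4.86% of all genes were higher and 7.61% lower. That gene was Cacna1d, an L-type calcium channel, which was higher by 0.15 ± 0.06 at its brightest probe, with its other 3 probes at -0.47 to -0.11. In the wider list of 43 cAMP and calcium signalling genes 3 were higher and 4 lower. Cacna2d2, a calcium channel subunit, was lower, with a difference of -0.45 ± 0.12, and had another probe among the 85 low in late pools 1 and 2. Prkar2a, a regulatory subunit of protein kinase A, was at 0.13, 0.11 and 0.10 in early pools, -0.34 and -0.33 in late pools 1 and 2, and 0.03 in late pool 3. Of 25 growth factor genes and receptors, 1 was higher and 3 lower. The one that was higher, Igf1r, the receptor of insulin-like growth factor, was at 0.90, 0.80 and 0.88 against 1.03, 1.08 and 1.07, a difference of 0.20 ± 0.08.

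Blood cell genes had negative differences at all 11 genes tested, from -0.98 to -0.11, and 4 of them were not well above background on all 6 arrays. Of the 11, 0 were higher and 5 lower at an unadjusted p under 0.05, and in 6 every late pool was below every early pool, when 7.61% of all genes were lower and 13.3% of probes had all late pools below. The median difference was -0.53, against -0.02 over all genes, and -0.60 against early pool 3. Hba-a1, an alpha globin, was at 5.56, 5.34 and 5.55 in early pools and at 5.15, 4.58 and 5.12 in late pools, a difference of -0.53 ± 0.19, and of -0.35 without late pool 2. Slc4a1, the anion exchanger of red cells, was at -4.17, -4.01 and -4.08 against -4.78, -5.04 and -4.96, a difference of -0.84 ± 0.16. Both red cell genes were lower in every late pool, whereas the groups overlapped at Ngp, Camp, S100a8, Hbb-bt and Cd79a, and Cd79a was at 0.45 against early pool 3. S100a9, a neutrophil gene, was lower too, with a difference of -0.82 ± 0.26, and its probe was 1 of the 85 low in late pools 1 and 2. The summed signal of the list, with each array's 75th percentile as 1, was 147 to 181 in early pools and 99.8 to 137 in late pools, so the groups did not overlap, and 169 to 202 in water pools and 136 to 210 in low drinker pools. Of 23 genes of blood vessels and meninges, 0 were higher and 1 lower (Slc6a13, a transporter of the meninges, -0.75 ± 0.32, or -0.43 without early pool 2 and -1.14 without early pool 1), with a median of -0.13 over all pools and -0.18 against early pool 3. Its lowest member was Ogn, a matrix protein of the meninges, at -3.10, -0.64 and -1.18 in early pools and -2.68, -3.21 and -2.88 in late pools, and all 23 genes had overlapping groups. The summed signal of that list was 48.9 to 55.6 in early pools and 46.1 to 51.2 in late pools. The share of blood in each pool was not measured, and its part in the lower value of Cd3e and of other genes of circulating cells was not tested.

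Genes of antigen presentation and cytokines were named partly from the fixed list and partly after their values were seen. Of 31 genes of toll-like receptor, cytokine and interferon signalling, 1 was higher (Nfkb1, 0.26 ± 0.09) and 4 lower, when 4.86% of all genes were higher and 7.61% lower. The Nfkb1 probe holds 23.3% G or C, its difference was 0.09 after GC correction, and its other probes differed by -0.06 to 0.00. Cd74, the invariant chain of MHC class II, was at -0.67, 0.20 and -0.03 in early pools and at -0.47, -0.89 and -0.88 in late pools, a difference of -0.58 ± 0.21. H2-Aa, the alpha chain of MHC class II, was chosen after its values were seen, since both of its probes were among the 95 with all late pools over 0.2 below the other 9 arrays. The H2-Aa probes differed by -1.01 ± 0.24 and -0.85 ± 0.22. Of other MHC class II genes, H2-Eb1 differed by -0.52 ± 0.29 with overlapping pools, and the probes of H2-Ab1 by -0.75 to -0.03. Among 18 genes of microglia and macrophages, which also carry MHC class II, Tyrobp was higher by 0.26 ± 0.10 and Cd68 was lower, with a difference of -0.18 ± 0.07, and the median was 0.10. After GC correction they differed by 0.40 and -0.06, and Tyrobp by 0.17 without late pool 2 or early pool 3.

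The pituitary genes named above belonged to a list of 11 tested, of which 3 were higher and 1 (Ghrhr, not well above background on any late array) lower, when 4.86% of all genes were higher and 7.61% lower. Lhb, Fshb, Gh and Prl, the other hormone genes on this list, differed by -0.21 to 0.70 with overlapping pools. Gh was well above background on 2 of 3 arrays in each group, and Prl on 1 early and 2 late arrays. The summed signal of the list was 53.0 to 54.1 in early pools, 56.9 to 59.6 in late pools, 52.8 to 58.5 in water pools and 58.8 to 59.6 in low drinker pools. This sum is weighted to the brightest genes of the list, and Cga, Tshb and Pitx1 made up a small part of it, so it does not measure pituitary content. The mean deviation of its genes overlapped, at -0.41, -0.96 and -0.46 in early pools and 0.03, -0.38 and -0.50 in late pools. Fragments of pituitary in a dissected hypothalamus would add such transcripts, and their part in the values of Cga, Tshb and Pitx1 was not tested.

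Thalamic markers varied within both groups. Of 16 genes tested, 1 was higher at an unadjusted p under 0.05, when 4.86% of all genes were higher and 7.61% lower, and the median difference was 0.43. Tcf7l2, a transcription factor of thalamic neurons, was at 1.79 and 1.48 in early pools 1 and 2, at 2.76 in early pool 3, and at 2.72, 2.59 and 3.06 in late pools. Prkcd, a kinase of sensory thalamus, was at -0.91, -1.10 and 1.20 in early pools and at 0.30, -0.40 and 2.13 in late pools. Early pool 3 was therefore above late pools 1 and 2 in both genes, and against early pool 3 the median of the list was -0.10. The summed signal was 42.5 to 61.1 in early pools and 49.7 to 74.3 in late pools. Of 15 striatal markers 0 were higher and 4 lower, with Drd2 as above and Adora2a, the adenosine receptor of striatal neurons, at -0.33 ± 0.12 and at -0.09 against early pool 3.

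Genes of neurons and glia differed little between the groups. None of 14 pan-neuronal genes had an unadjusted p under 0.05, at which 4.86% of all genes were higher and 7.61% lower, and their differences ran from -0.15 to 0.05. Of 21 oligodendrocyte genes, Gpr17 and Pdgfra, which mark oligodendrocyte precursors, were higher, by 0.28 ± 0.10 and 0.16 ± 0.07 (Pdgfra by 0.09 against early pool 3), but their other probes differed by -0.61 and -0.37. Of 16 astrocyte genes, Slc1a3, Fgfr3 and Gja1 were higher, by 0.18 to 0.22, and the median was 0.07. Fgfr3 differed by 0.11 against early pool 3 and by -0.42 and 0.13 at its other probes, and Gja1 by 0.03 without late pools 1 and 2. Of 20 transcription factors of hypothalamic regions, Sim1, which builds the paraventricular nucleus, was higher by 0.57 ± 0.22 at a probe with 23.3% G or C, and Barhl1 of the mammillary region was lower, with a difference of -0.20 ± 0.08. The difference of Barhl1 was -0.07 against early pool 3 and also after GC correction, and 0.07 at its other probe. The reference genes Actb and Gapdh differed by 0.08 ± 0.08 and -0.09 ± 0.06, and by -0.32 and 0.06 at their other probes.

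**Figure D5:**
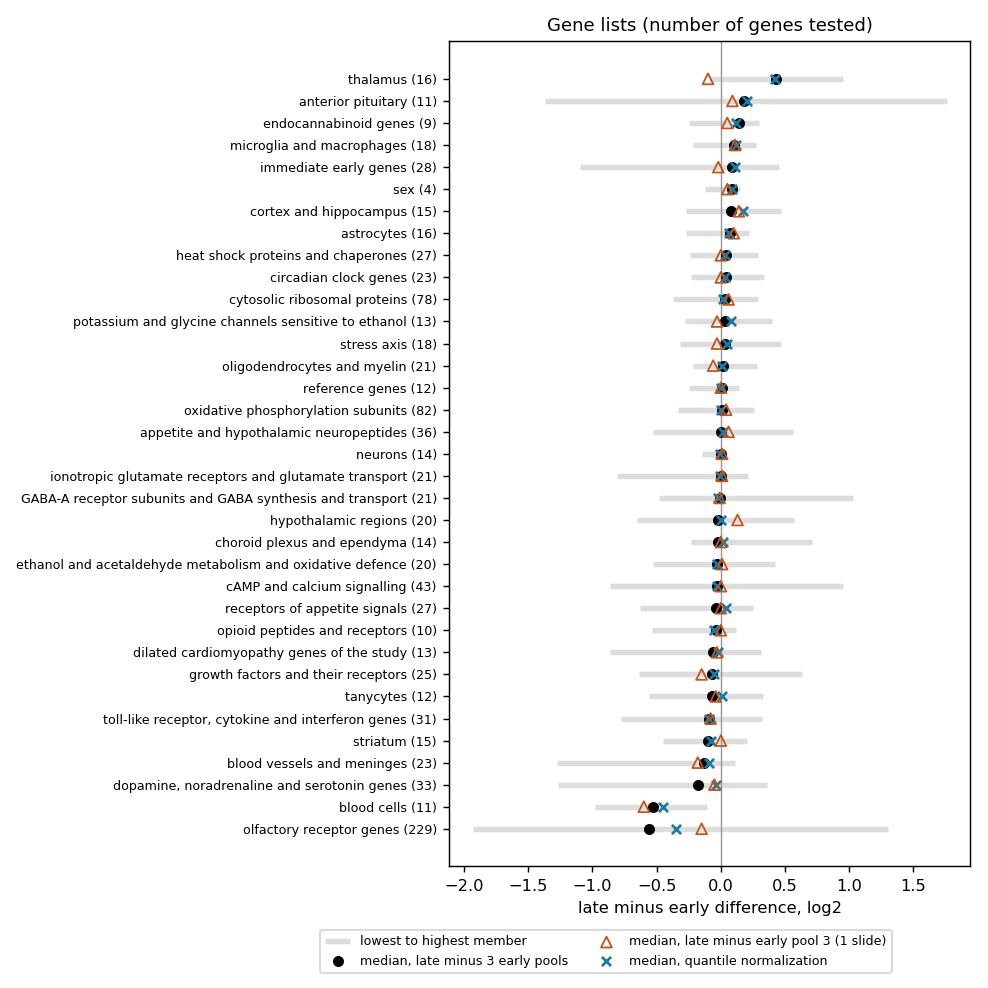
Late minus early difference in log2 units for 35 gene lists, with the number of genes tested, as the range from the lowest to the highest member (grey), the median over all pools (black), the median of late pools minus early pool 3 (orange triangles) and the median under quantile normalization (blue crosses). The median of blood cell genes is below 0 on all 3 measures, thalamic markers are at 0.43 over all pools and at -0.10 within the slide, and most lists lie near 0.

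Olfactory receptors, which are hardly transcribed outside the nose, were the list with the most genes tested and the most lower in late drinkers. Of 908 such genes on the array, 229 passed the filter on signal, and 145 of these were not well above background on all 6 arrays. Of the 229, 1 was higher and 91 lower at an unadjusted p under 0.05, the median difference was -0.56, and 58 had every late pool below every early pool. Over all genes 4.86% were higher and 7.61% lower, 13.3% of probes had all late pools below, and of the 6629 dimmest probes 8.16% were lower. The median was -0.35 under quantile normalization and -0.15 against early pool 3, so its size changed with the scaling and with the early pools used. Slide and early pool 3 itself cannot be told apart in the second value. These counts cover the genes that passed and say nothing of the rest. By contrast, the 78 cytosolic ribosomal proteins tested, all well above background, had 5 higher and 3 lower, from -0.37 to 0.29 (4.86% and 7.61% over all genes), and the 82 subunits of oxidative phosphorylation had 2 higher (Atp5g3 at 0.17 and Cyc1 at 0.15) and 0 lower.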

How the data were processed

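RNA of each hypothalamic pool was labelled with Cy3 and hybridised to a 1-colour Agilent mouse array. The authors deposited the scanner output of Agilent Feature Extraction 10.5.1.1 per the file headers, whose values are fluorescence intensities with background subtracted. A table of intensities that the authors also deposited held the same values within 0.001 log2. Here log2 intensity minus each array's 75th percentile over 43379 spots was used. Outlier spots and spots with a signal under 2 times its error were left missing, and spots of a probe were averaged. Probes with values on 2 of 3 arrays in both groups were tested with limma 3.58.1 (R 4.3.3) over all 12 arrays in 4 groups, with Benjamini-Hochberg adjustment. Of 41174 probes, 25089 matched a gene table, which gave current symbols, and other probes kept their names in the files. A gene in a list was represented by the probe with the highest mean. In simulated data with 200 of 33141 probes changed by 1 log2, 127 were recovered and 8 others were called. The simulated noise was independent between probes and arrays, without slide or GC effects, so these counts need not hold for the real contrast. The number of arrays limits the precision. Mice were housed singly, per the study's methods, and p-values measure the spread between these pools.

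Named genes were the 10 with the largest difference and the 5 with the smallest p in each direction, among annotated probes well above background on all 6 arrays whose groups did not overlap, together with list members. Members and lists were chosen with earlier results of these data known. Alternatives covered scaling, background, filters, slide, scan day, pairing of pool numbers and leaving out each pool. Correction for GC content and leaving out both late pools 1 and 2 were added after seeing the data. Some genes are not reported here.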

Additional observations from a re-analysis of the deposited data

How the results depend on the processing

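Probes past an adjusted p of 0.05 (0 over all pools, limma) numbered 5 under quantile normalization, 1 without scaling, 2 over probes well above background, 1 with the 6 early and late arrays alone, 18 with slide as a fixed block and 10 with scan day as a block. The last count equals that without low drinker pool 1, the one array that links the scan days. Leaving out 1 pool gave 0 to 194 such probes, the most without early pool 3 (194) and late pool 3 (103), with 10 without low drinker pool 1, 2 without water pool 3 and 1 without late pool 2. Without both late pools 1 and 2, a setting chosen after seeing the data, there was 1.

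At an unadjusted p under 0.05 there were 1808 probes with slide as a block (710 higher, 1098 lower) and 1603 without late pools 1 and 2 (673 higher, 930 lower). Leaving out 1 pool gave 2378 to 4848 (701 to 1790 higher, 1525 to 3456 lower). Without scaling, where the median difference was 0.12 in place of -0.03, 4334 were higher and 914 lower, and 5937 probes had late pools above and 1225 below all early pools. Normexp background correction gave 1147 higher and 3082 lower, and quantile normalization 1725 and 1999. After GC correction, chosen after seeing the data, 3780 probes had late pools above and 2620 below.

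With pool number as a replicate block, 0 probes passed an adjusted p of 0.05 and 3792 an unadjusted one. Deviations of same-numbered pools correlated at -0.02, 0.03 and 0.09, so the numbers were not taken as pairs. Of 162 named probes, 35 changed sign under at least 1 setting, 14 of them with slide as a block, and so did the medians of 23 of 35 lists, 13 of them without scaling. None of these probes had an unadjusted p under 0.05 over all pools. Cd79a, a B cell gene, had one with slide as a block (0.45, against -0.11 over all pools). Under alternatives, 427 values of genes no longer passed an unadjusted p of 0.05 and 40 newly passed it. The causes were not tested.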
